A study of Mus musculus with 22 samples.

Results

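Mesothelial cells are the flat cells that line the pleural, pericardial and peritoneal cavities and cover the organs inside them. They form an epithelial sheet joined by tight junctions, yet they come from mesoderm and keep mesenchymal features such as vimentin, and they secrete the lubricating fluid of the serosal surface. They were identified here among single cells of dissociated mouse organs by their transcripts. A cell barcode was taken as mesothelial when it had at least 200 detected genes, at most 25% mitochondrial transcripts, transcripts of at least 2 of Msln, Upk3b, Lrrn4, Wt1 and Gpm6a with Msln or Upk3b among them, and none of Ptprc (leukocytes), Pecam1 (endothelium) or Sftpc (alveolar type 2 cells). The 11 tissue libraries held 518 such cells among 93055 barcodes that passed the gene and mitochondrial limits, or 0.557%.

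The study asked whether loss of Nalcn, which encodes a sodium leak channel, changes the shedding of cells from solid organs into the blood. Each tissue library pooled kidney, liver, lung and stomach with epididymis in males or uterus in females, and the hashtag reads that mark the organ of each cell were not used here, so no cell was assigned to an organ. All mice carried Prom1-CreERT2, a tamoxifen-activated Cre driven by a gene of stem and progenitor cells, and the Rosa26ZSG green lineage allele, on a mixed background, so that Nalcn could be deleted only in cells that had used Prom1 and in their progeny. Titles gave 5 Nalcn-wt libraries. Replicates 1 and 2 were males of 571 days and 3 a male of 608 days. Replicates 4 and 5 were females of 611 and 654 days. Titles also gave 2 Nalcn-het libraries (replicates 1 and 2, males of 551 days). Of 2 Nalcn-null libraries, replicate 2 (a male of 552 days) took its genotype from the title and replicate 3 (a female of 611 days) from the strain label. In 2 further libraries the title and the strain label named different genotypes (a male of 610 days and a female of 647 days). These libraries of unclear genotype held 127 of the cells, are given as values and entered no genotype comparison.

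Msln encodes mesothelin, a surface glycoprotein that binds the mucin encoded by Muc16. Upk3b encodes a uroplakin, a membrane protein first known from bladder epithelium, and Lrrn4 a leucine-rich repeat membrane protein. Wt1 is a zinc finger transcription factor of the embryonic coelomic epithelium, and Gpm6a encodes a membrane glycoprotein also made by neurons. In the mm10 build, Upk3b lies at chr5:136038496-136046487 on the plus strand, Lrrn4 at chr2:132868305-132880891, Msln at chr17:25748613-25754378 and Muc16 at chr9:18495455-18674530 on the minus strand, and Wt1 at chr2:105126529-105173616 and Gpm6a at chr8:54954843-55060871 on the plus strand.

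The bases just upstream of Upk3b and Lrrn4, genes of the rule, are shown as examples. Both stretches hold the letters GGAATG, the core bound by TEAD factors of the Hippo pathway. Gpm6a holds these letters upstream too and is not printed. Sequences are from RefSeq (GRCm38.p6), written 5′ to 3′ on the strand of the gene and ending at the base before its annotated start: Upk3b at chr5:136038246-136038495 (plus strand) and Lrrn4 at chr2:132880892-132881112 (minus strand). Capitals mark the motif, which in Upk3b runs on the opposite strand and reads CATTCC.
Upk3b: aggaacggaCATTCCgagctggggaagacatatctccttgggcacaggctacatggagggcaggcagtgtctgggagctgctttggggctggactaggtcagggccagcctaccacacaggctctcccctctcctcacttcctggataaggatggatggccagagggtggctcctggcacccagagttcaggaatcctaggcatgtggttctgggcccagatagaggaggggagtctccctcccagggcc
Lrrn4: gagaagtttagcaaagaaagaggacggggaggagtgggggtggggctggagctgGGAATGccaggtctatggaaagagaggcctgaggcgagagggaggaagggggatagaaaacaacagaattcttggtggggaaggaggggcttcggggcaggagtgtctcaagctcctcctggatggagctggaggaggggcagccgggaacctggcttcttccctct

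Promoter entries were matched for 19 of 25 genes, the 5 of the rule and 20 further mesothelial genes listed below. On either strand, GGAATG stood in the 250 upstream bases of 5 of their 20 promoters (25%), those of Upk3b, Lrrn4, Gpm6a, Cldn15 and Igfbp5, and in 12.6% of 32851 promoters of all genes. The WT1/EGR core GCGTGGG stood in 1, that of Aldh1a2, against 4.30% of all, the GATA core AGATAA in 1, that of Krt8, against 9.99%, and the AP-1 site TGACTCA in 1, that of Cldn15, against 4.46%. These are matches of letters on either strand and no measure of binding.

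The cells carried a broad set of mesothelial transcripts beyond the 5 that chose them. The list of 20 other genes held Krt7, Krt8, Krt18, Krt19, Calb2, Pdpn, Muc16, Bnc1, Cldn15 and Nkain4. It also held Rspo1, Upk1b, Efemp1, Slpi, Igfbp5, Igfbp6, Aldh1a2, C3, Ildr2 and Tmem151a. Of 20 other genes known from mesothelium, the median cell had transcripts of 10 (interquartile range 7 to 14, range 0 to 19), and 17 cells had fewer than 5. A gene of that list with no UMI (1 counted RNA molecule) in any of the 518 cells was Calb2, which encodes the calcium-binding protein calretinin. By the rule's own markers, 97 cells had 2 of the 5, 114 had 3, 171 had 4 and 136 had 5.

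Cells just inside the rule, with 2 markers, had a median of 7 of the 20 other genes detected, and those with 3 or more had 11. Just outside it, 337 barcodes with Msln or Upk3b alone had 5, although their median depth was 4247 UMIs against 1812 in cells with 2 markers, and 31 barcodes with at least 2 of Lrrn4, Wt1 and Gpm6a but neither Msln nor Upk3b had 7. A further 221 barcodes met the marker part but had a UMI of Ptprc, Pecam1 or Sftpc (median 11), and 129 met it but failed the gene or mitochondrial limit (median 7).

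Depth and mixing bear on every value below. Tissue libraries summed to between 8571019 and 139793927 UMIs, and the median mesothelial cell had 2500.5 UMIs (range 520 to 77863), from 1273 in null 2 to 21816 in wt 1. Of the cells, 26 had a barcode sequence that also occurred in another library. Barcodes with the highest Scrublet scores were flagged as doublets, their number set beforehand at 0.8% per 1000 barcodes of a library. The flag took in 90 of the cells (17.4%) and 16.2% of all passing barcodes, a share that was imposed and not measured. Leukocyte transcripts took 0.0443% to 0.178% of the UMIs of these cells per library against 0.855% in all other passing barcodes. Endothelial transcripts took 0.00847% to 0.0271% against 0.0810% (all 6 genes detected). The rule required Ptprc and Pecam1 at 0, and the other barcodes include leukocytes and endothelium, so the choice of cells favoured these low shares. Of 6 genes of podocytes, kidney cells that also use Wt1, 4 were detected and took 0.00590% to 0.0139% against 0.0156%, and Nphs1 was among those at 0. All 8 genes of the fibroblast list were detected and took 0.544% to 1.09% against 0.0509%.

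Transcripts of other epithelia were uneven between libraries. All 6 epididymal genes listed (Gpx5, Defb20, Spag11b, Cst11, Spink8 and Cst8) were detected, and they took 4.03% of the UMIs in het 1, 2.63% in null 2, 0.551% in het 2, 0.268% in wt 3, at most 0.0660% in each other library and none in wt 4. Transcripts of red cells took 1.08% in wt 2, 0.922% in wt 3 and at most 0.211% elsewhere. Of the ciliated and club cell list, wt 2 held 0.515% and each other library at most 0.0577%. Squamous and bladder transcripts reached 0.248% in het 2, 0.217% in wt 2 and 0.147% in null 3, with Upk3a at 1979.5 CPM (counts scaled to 1 fixed total per library) in het 2, 1396 in wt 2, 817 in null 3 and at most 161 elsewhere. All other passing barcodes averaged 0.00900% for the squamous and bladder list. They averaged 1.29% for the epididymal list, 0.731% for red cells and 0.757% for ciliated and club cells. In all, 15 cells had at least 2 UMIs of Upk1a, Upk2 and Upk3a, uroplakins of bladder epithelium, 7 had over 5% epididymal UMIs, and these made 21 cells.

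The library labelled null 3, a female with uterus in its pool, went against its label. Of its 57 mesothelial cells, 29 had a UMI of the female transcript Xist, 14 had a UMI of a Y-linked gene and 2 had both, and its other barcodes carried Spag11b at 6284 CPM. By comparison, 81 of 84 cells of wt 4, also labelled female, had Xist and 0 had a Y-linked UMI. Genotype and sex comparisons are also given without it.

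**Figure D1:**
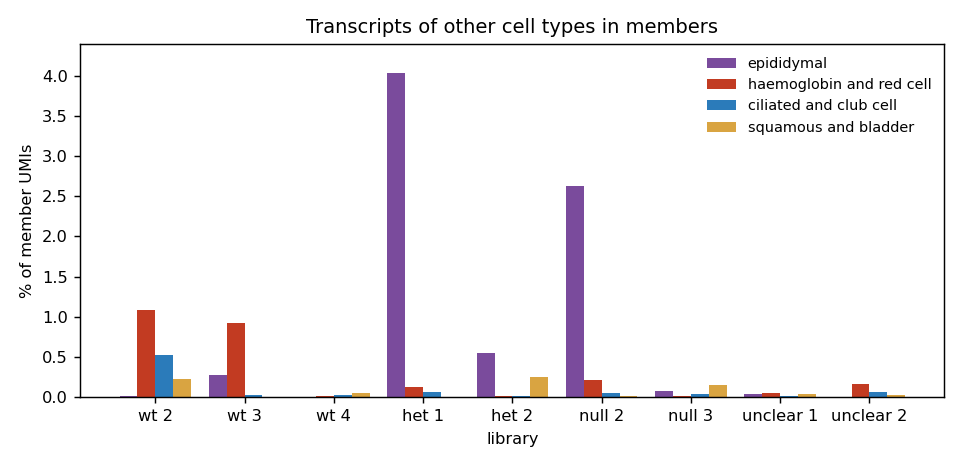
Share of the UMIs of mesothelial cells (vertical axis, percent) that fell in 4 lists of other cells, for each of the 9 tissue libraries with at least 20 such cells ("unclear" marks the 2 libraries with conflicting labels). Epididymal genes reached 4.03% in het 1 and 2.63% in null 2, and haemoglobin and red cell genes 1.08% in wt 2.

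Mesothelial cells made up between 0 and 1.23% of the passing barcodes of a tissue library. The share in wt 1 was 0.0673% (4 of 5941), in wt 2 0.175% (32 of 18242), in wt 3 0.803% (45 of 5601) and in wt 4 0.643% (84 of 13067), and wt 5 had 0 of 287, which allows a share of up to 1.05%. In het 1 it was 0.520% (39 of 7498), in het 2 0.568% (23 of 4048), in null 2 1.23% (107 of 8710) and in null 3 0.609% (57 of 9364). The libraries of unclear genotype held 0.694% (30 of 4323) and 0.607% (97 of 15974). The wt libraries spanned the range of the het libraries and null 3, and null 2 lay above all.

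**Figure D2:**
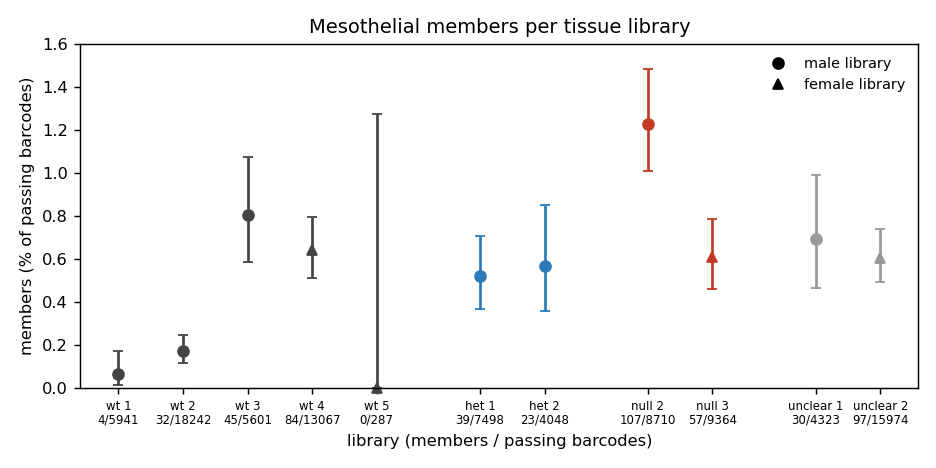
Mesothelial cells as a percent of passing barcodes in each of the 11 tissue libraries (circles, males; triangles, females), with exact Clopper-Pearson 95% intervals, which cover counting error only. The highest share was that of null 2, 1.23% (1.01 to 1.48), and wt 5 had none of 287.

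Mean share was 0.731% ± 0.333 (SD, n = 4) in het and null libraries together and 0.338% ± 0.362 (n = 5) in wt libraries. The difference of 0.394 percentage points did not pass (two-sided exact permutation test over libraries, p = 0.159; 0.317 adjusted over both share tests; smallest possible 0.0159). It was 0.228 without null 2, 0.434 without null 3 and 0.424 in male libraries alone (p = 0.3 by the exact test, whose smallest p there is 0.1). Labelled females averaged 0.417% ± 0.362 (n = 3) and males 0.560% ± 0.424 (n = 6), a difference of -0.143 percentage points (exact permutation p = 0.619, smallest 0.0238) that turned to 0.0653 without wt 5 and was -0.239 without null 3, and sex and the reproductive organ in the pool cannot be told apart. Shares depend on how many other cells each pool held: among barcodes without Ptprc the genotype difference was 0.307 (exact permutation p = 0.492).

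Expression was then read from UMIs summed over the mesothelial cells of each library and scaled to CPM, in the 7 libraries of known genotype with at least 20 such cells (387 cells; 3 wt, 2 het and 2 null). Such libraries count 1 end per RNA molecule, so no scaling by gene length was applied. In a sum over cells, fewer cells with a transcript and less transcript per cell cannot be told apart.

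The genes of the rule are given as a description, since they chose the cells. Msln stood at 963, 405 and 715 CPM in wt 2, 3 and 4, 588 and 770.2 in het 1 and 2, and 578 and 793 in null 2 and 3, with 660.4 and 691 in the libraries of unclear genotype, and at a mean of 4.13 in all other passing barcodes. Upk3b ran from 781 CPM in wt 2 to 1371 in het 2 (mean 1189 ± 207, SD, n = 7) against 5.27 elsewhere, and Lrrn4 from 279 to 454 (381 ± 59.0) against 1.44. Gpm6a averaged 1038 ± 274 CPM against 12.9. Wt1 varied most among the 5, with 139, 487 and 691 CPM in wt 2, 3 and 4, 313 and 285 in het 1 and 2, and 401 and 281 in null 2 and 3, and averaged 116 CPM in the fibroblast gate described below, which required Msln and Upk3b to be at 0.

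Muc16, the mucin partner of mesothelin, was not part of the rule and was present in every library. It stood at 262, 288 and 247 CPM in wt 2, 3 and 4, 276 and 293 in het 1 and 2, 187 and 339.7 in null 2 and 3, and 339 and 228 in the libraries of unclear genotype, against a mean of 1.06 in other barcodes, a ratio of 255. The zinc finger gene Bnc1 followed at 37.4 to 122 CPM (ratio 151), then Pkhd1l1, a fibrocystin-like membrane protein, at 114 to 253 (128), Nkain4, a partner of the sodium pump, at 375 to 711 (122), and Rspo1, an activator of Wnt signalling, at 288 to 447 (103). Other high ratios came from genes with less even levels: Slurp1 was at 0 in wt 3 and 449 in wt 2 (ratio 118), Prph, a neuronal intermediate filament gene, at 7.37 to 264 with the top in wt 4 (92.1), Myl7, an atrial myosin light chain gene, at 3.72 to 112 (87.1), Nxph1 at 10.4 to 118 (112) and Cybrd1, a ferric reductase, at 10.7 to 247 (94.2).

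The complement gene C3 was among the most abundant transcripts of the cells, at 3749.9, 5330.3 and 5394 CPM in wt 2, 3 and 4, 6070.2 and 8203 in het 1 and 2, 3054 and 5721 in null 2 and 3, and 8441 and 7428 in the libraries of unclear genotype. No library fell below 3054, against a mean of 154 in all other barcodes. The insulin-like growth factor binding proteins Igfbp5 (4861 ± 813 CPM, SD, n = 7) and Igfbp6 (2922 ± 448) and Rarres2, which encodes the chemoattractant chemerin (3739 ± 1037), were high in all 7 libraries, at 3407, 2338 and 2812 or above. By mean CPM, the 12 highest genes outside the rule, the gates and the mitochondrial genome were Malat1, Gm42418, Tmsb4x, Tpt1, Crip1, C3, Fth1, Igfbp5, S100a6, Gpx5, Rpl13 and Rplp1, of which Gpx5 is epididymal and was at 0 in wt 2, 3 and 4. Slpi, a secreted protease inhibitor, ranged from 1384 in null 2 to 3967 in het 2.

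After every cell was thinned to 1000 UMIs, which left 477 of the 518 cells, 25.8% had a UMI of Muc16, against 0.0167% of cells in a B cell gate (median depth 2500.5 UMIs in mesothelial cells and 2134 in B cells), 0 of the fibroblast gate and 0.0377% of the epithelial gate described next. For Aldh1a2, a retinoic acid synthesis enzyme, the share was 13.0% against 0.217% in B cells and 1.08% in fibroblasts. For Krt19 it was 38.8% against 3.86% in B cells and 23.7% in epithelial cells. For Slpi it was 50.3% against 19.5% of B cells. These shares pool cells over libraries, which gave unlike numbers of each kind of cell. They describe the pooled cells and do not measure how particular a gene is.

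**Figure D3:**
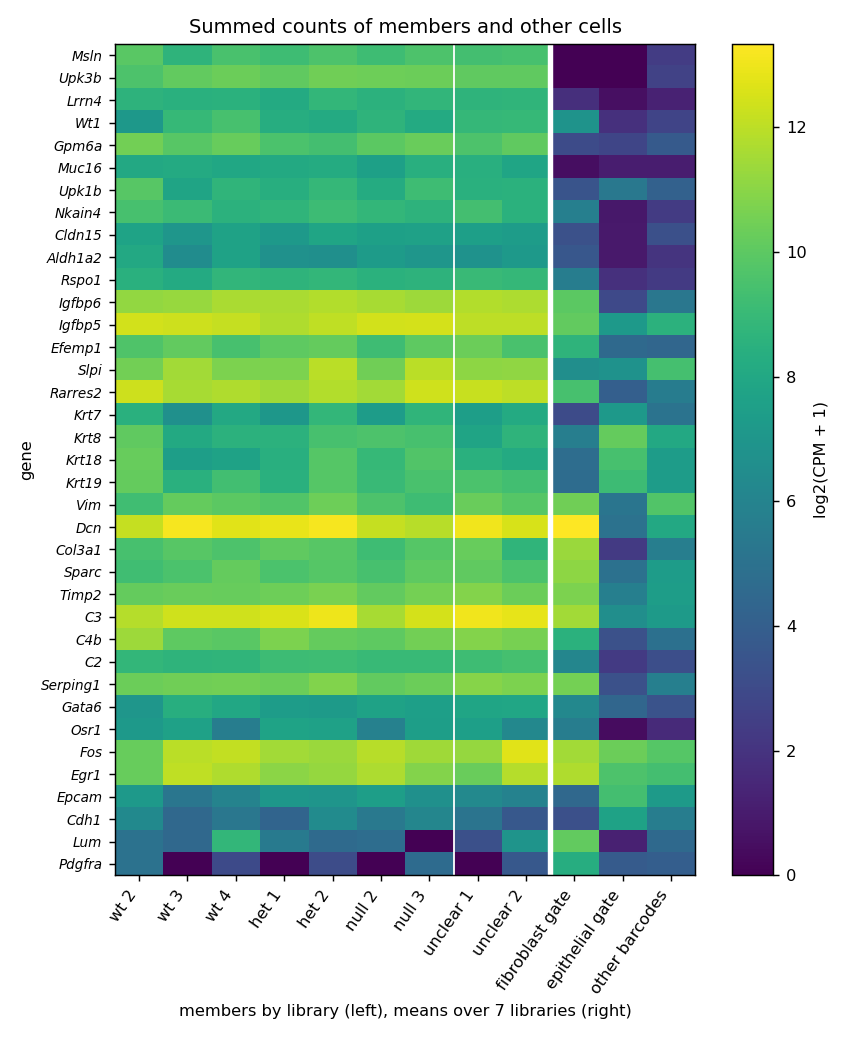
Heat map of log2(CPM + 1) for genes of the rule and of the listed groups (rows) in the summed mesothelial cells of 9 libraries (columns; "unclear" marks the 2 with conflicting labels), beside means of the fibroblast gate, the epithelial gate and all other passing barcodes over 7 libraries. Msln and Upk3b are at 0 in both gates because the gates required it. Muc16 ran from 187 to 339.7 CPM in the 7 libraries and had means of 0.431 and 1.11 in the gates.

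To place the cells between mesenchyme and epithelium, they were compared within libraries with both kinds of cell. Fibroblasts were barcodes with at least 3 of Col1a1, Col1a2, Dcn, Lum and Pdgfra, and epithelial cells those with Epcam and at least 1 of Cdh1, Cldn3, Cldn4 and Cldn7. In both gates Ptprc, Pecam1, Sftpc, Msln and Upk3b were absent. The 7 libraries held 55 to 242 fibroblasts and 99 to 630 epithelial cells each. The genes that set a gate and those of the rule were left untested in its comparison, and all p-values of these comparisons are edgeR quasi-likelihood p-values adjusted over all genes tested, with library as a block. A gene could enter a test through the class in which it was high, so counts over the tested genes of a list describe those genes and not the whole list (24 junction, 26 matrix, 34 defence, 32 growth factor and 51 position genes were listed).

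Against fibroblasts, 509 of 2863 genes were higher (17.8%) and 533 were lower (18.6%), with a median log2 difference of 0.01 over all genes. Among genes high in mesothelial cells, the largest differences were those of Muc16 (log2 difference 8.27, SE 0.35, adjusted p = 4.1e-08; 270.2 ± 46.8 CPM, SD, n = 7, against 0.431 ± 1.14), Pkhd1l1 (7.33), the uroplakin Upk1b (6.19), Slpi (5.50), Bcam, a laminin receptor (5.35), Fxyd3, a sodium pump regulator (5.28), the keratin Krt7 (5.27) and Tmem151a (5.19). Lower were genes of adventitial fibroblasts and their secreted matrix: Pi16 (-7.24), the eosinophil chemokine Ccl11 (-7.09), Pcolce2 (-6.61), the Wnt antagonist Sfrp4 (-6.19), Dpt (-6.18) and Postn (-5.77). Cilp, a matrix protein gene, and Aldh1a3 had no UMI in mesothelial cells of these libraries and were at least 67.3-fold and at least 66.2-fold lower, taking 3 counts over the 7 libraries as the floor.

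Of the 20 listed mesothelial genes, 18 could be tested, 17 were higher than in fibroblasts and none lower (median log2 difference 3.65), beside 17.8% of all genes higher. The cells were picked by other mesothelial genes, and the fibroblast gate required Msln and Upk3b at 0. The count therefore describes the cells and is no independent test of what they are. Cldn15, a tight junction claudin, stood at 187 ± 38.2 CPM against 9.04 ± 9.77 (4.55, SE 0.39, adjusted p = 2.03e-06) and Aldh1a2 at 149.7 ± 63.4 against 11.1 ± 7.70 (3.64, SE 0.36, adjusted p = 6.46e-06). The gene that did not pass was Pdpn, the membrane mucin podoplanin (198 ± 71.7 against 161 ± 26.2; 0.18, SE 0.17, adjusted p = 0.423). C3, high in both, was still 0.86 higher (SE 0.13, adjusted p = 0.000214).

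Of the junction and polarity list, 8 of 10 tested genes were higher than in fibroblasts, beside 17.8% of all genes, and none lower. The higher ones included Ezr, the microvillar linker ezrin (2.58, SE 0.21), and F11r, a tight junction adhesion molecule (2.56, SE 0.27). All 4 keratins tested were higher, Krt18 at 593 ± 394 CPM against 25.9 ± 35.8 (4.78, SE 0.55, adjusted p = 2.24e-05) and Krt19 at 664 ± 298 against 25.5 ± 16.3 (4.71, SE 0.41). Vim, the mesenchymal filament vimentin, was 0.69 lower (SE 0.14, adjusted p = 0.00209) and remained abundant at 899.8 ± 283 CPM against 1406 ± 443. In the keratin values wt 2 was highest for Krt8, Krt18 and Krt19 (1091, 1193 and 1166 CPM) and wt 3 lowest for the first and second (273 and 177).

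All 20 testable genes of the matrix list were lower than in fibroblasts (median -1.97), beside 18.6% of all genes. The fibroblast gate was set by Col1a1, Col1a2, Dcn, Lum and Pdgfra, most of them on this list. The choice of cells therefore favoured this direction. The largest difference within the list was that of Fn1, fibronectin (58.0 ± 48.1 against 1258 ± 495 CPM; -4.61, SE 0.30, adjusted p = 2.5e-07). Nid1, a basement membrane linker, was also lower (log2 difference -3.57, SE 0.19), and the smallest in the list was that of the protease inhibitor Timp2 (-0.39, SE 0.11). The small proteoglycan Dcn, which set the fibroblast gate and was therefore not tested, was 6578 ± 2244 CPM in mesothelial cells and 10344 ± 3486 in fibroblasts.

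Of 11 serosal fluid genes listed, 7 could be tested. Of these, 5 were higher and 2 lower, beside 17.8% and 18.6% of all genes. Higher were the water channel Aqp1 (419 ± 162 against 42.1 ± 36.5 CPM, log2 difference 3.26, SE 0.32) and the anti-adhesive sialomucin Podxl (2.67, SE 0.33), among others. Muc16, Slpi and Efemp1 stand both on this list and on the mesothelial list counted above. Kdr, the VEGF receptor placed on the endothelial list, was higher too (135 ± 21.5 against 22.1 CPM; 2.43). The hyaluronan synthase Has1 was lower (105 ± 39.8 against 507 ± 187; -2.27, SE 0.27, adjusted p = 3.44e-05), and Has2 had no UMI in mesothelial cells against 53.5 CPM in fibroblasts. The lipid droplet gene Plin2 was 0.64 lower (SE 0.23, adjusted p = 0.0472), a call that was lost without het 1, het 2, null 2 or wt 3.

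Of 24 defence genes tested, 5 were higher, a share near the 17.8% of all genes: the complement components C2 (492 ± 66.5 against 69.6 ± 27.8 CPM; 2.83, SE 0.18, adjusted p = 2.5e-07), C4b (1.87, SE 0.20) and C3, the chaperone clusterin Clu (2.94, SE 0.44) and Slpi. Lower were 9, beside 18.6% of all genes. Among them were the chemokines Ccl7 (-4.46), Cxcl12 (-4.27) and Cxcl1 (-3.08), the cytokine Il6 (-4.34) and the adhesion molecule Vcam1 (-3.49). The complement regulator Serping1 (1373 ± 198 against 1499 ± 286 CPM) did not pass (adjusted p = 0.226).

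Of 19 growth factor and binding protein genes tested, 7 were higher, beside 17.8% of all genes, led by Fgf1 (354 ± 124 against 15.3 ± 9.30 CPM; 4.34, SE 0.27, adjusted p = 2.24e-07), Rspo1 (3.13, SE 0.30) and Gas6, a ligand of TAM receptors (1.85, SE 0.14). Another 7 were lower, beside 18.6% of all, among them Igfbp3 (-4.14), Sfrp1 (-2.48) and Vegfa (-1.44). Of 14 retinoid genes 7 could be tested, with a median of -0.39, and beside 17.8% of all genes higher and 18.6% lower, 3 were higher, Aldh1a2, Rarres2 (2.34, SE 0.13) and Aldh1a1 (1.17), and 2 were lower, Aldh1a3 among them. Among 7 transcription factors of position and lineage, Osr1 (1.58, SE 0.26) and Gata6 (1.38, SE 0.18), both made by lateral mesoderm, were higher together with Bnc2. In all, 3 of the 7 were higher, 1 was lower and 3 did not pass, with a median of 0.15. Gata6 was at 128, 324 and 254 CPM in wt 2, 3 and 4, 168 and 154 in het 1 and 2, and 203 and 182 in null 2 and 3, against 74.2 ± 20.1 in fibroblasts.

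Genes of invasion and of the transition from epithelium to mesenchyme made up a list of 10 that the study had named. The study reported them as raised after Nalcn was deleted from gastric stem cells, which is not the contrast of cell classes given here. The 5 that could be tested were all lower than in fibroblasts, beside 18.6% of all genes: Sfrp4, Fstl1 (-2.87, SE 0.18), Timp3 (-2.02), Sparc (-1.41) and Zeb1 (-1.19). Of 14 regulators of that transition in a second list, which shares Zeb1 with the first, 10 could be tested and 7 were lower, Zeb2 (-3.43) included, and none higher. Of 18 immediate early and heat shock genes, which dissociation can induce, 5 were lower against 18.6% of all genes (list median -0.16), including Junb (-0.99) and Klf4 (-0.70), while the calls of Egr1 and Fosb were lost without wt 2, het 1 or het 2, and Fos was at 3101 ± 1091 against 2820.2 ± 818 CPM. With at most 10% mitochondrial UMIs, which left 4 libraries, 438 genes passed against fibroblasts, and the calls of C3, C4b, Slpi, Zeb1, Klf4, Timp2 and Itgb1 were among those lost.

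Against epithelial cells, 888 of 5326 genes were higher (16.7%) and 774 were lower (14.5%), with a median log2 difference of -0.06. The largest differences upward were those of Pkhd1l1 (9.72, SE 0.39, adjusted p = 1.06e-08; 191 ± 44.2 CPM against 0.302 ± 0.693), Muc16 (9.28, SE 0.56), Nkain4 (8.81), Igfbp6 (8.69), the prostacyclin synthase Ptgis (8.48), the adhesion receptor Adgrd1 (8.25), Osr1 (8.24) and Sfrp2 (8.24). The largest downward were genes of ciliated cells (Ccdc153, -7.98; Tmem212, -7.23) and of gastric mucus cells (Muc5ac, -5.86; Tff1, -5.60; Gkn2, -5.24), with Sec14l3 (-6.30), 1110017D15Rik (-6.21) and Dcdc2a (-5.23). The epithelial gate mixed organs, and its epididymal Gpx5 was 16376 ± 16294 CPM.

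Of 19 listed mesothelial genes tested, 15 were higher than in epithelium (median 5.48), beside 16.7% of all genes. This too is a description, since mesothelial genes picked the cells. The keratins were the exception. Krt19 stood at 664 ± 298 CPM against 557 ± 297 (0.18, SE 0.27, adjusted p = 0.663), Krt7 (1.00, adjusted p = 0.0739) and Krt18 (-0.62, adjusted p = 0.171) did not pass, and Krt8 was 1.08 lower (SE 0.35, adjusted p = 0.037), a call lost without het 1, het 2, null 2, wt 3 or wt 4. Vim was 4.77 higher (SE 0.43, adjusted p = 6.84e-06), at 35.5 ± 30.6 CPM in epithelial cells.

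Of the invasion list named by the study, 3 genes could be tested against epithelium and all 3 were higher, Fstl1 (4.90), Sparc (4.86) and Timp3 (0.79). So were 2 of 3 regulators of the transition, beside 16.7% of all genes.

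The junction list was mixed, beside 16.7% of all genes higher and 14.5% lower. Of 15 genes tested, 4 were higher, led by Cdh11, a mesenchymal cadherin (198 ± 118 against 0.732 ± 0.853 CPM; 7.56, SE 0.27, adjusted p = 5.39e-09), and Cldn15 (7.36, SE 0.22), and 5 were lower, among them the desmosomal Dsp (-1.54, SE 0.26) and Dsg2 (-1.14), the tight junction protein occludin Ocln (-1.46) and the polarity gene Crb3 (-1.29). Epcam and Cdh1 set the gate and were not tested. They averaged 112 ± 48.8 and 50.6 ± 27.2 CPM in mesothelial cells, against 647 ± 177 and 206 in the gate.

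Matrix genes were higher than in epithelium for 16 of 18 tested and lower for none (median 5.12), Col3a1 (7.89, SE 0.49) and Timp2 (4.61, SE 0.27) among them. The list counts of this paragraph stand beside 16.7% of all genes higher and 14.5% lower. Of 23 defence genes, 16 were higher, including the complement genes Serping1 (7.22, SE 0.23), C4b (7.19), C1ra (7.29) and C3 (6.15), while the secretory epithelial genes Lcn2 (-3.47), Hp (-2.81) and Clu (-1.30) were lower. Of 22 growth factor genes, 16 were higher, and Gdf15, a stress cytokine, was lower (-2.64). Of 18 position factors, 7 were higher, with Bnc1 (6.14, SE 0.41), Bnc2 (4.74) and Gata6 (3.47), and 8 were lower, with the kidney and genital duct factors Pax2 (-2.60) and Pax8 (-2.25) and the homeobox genes Hoxb7 (-1.41) and Hoxd9 (-1.51). Of 18 immediate early and heat shock genes, 12 were higher (median 0.71), including Klf2 (2.23) and Egr1 (1.69), of which Jun, Junb, Zfp36 and Hspa1b were each lost without at least 1 library (null 2 for the first 3 and wt 3 for Hspa1b, among others). Neither cell cycle gene tested passed, with the proliferation marker Mki67 at 2.02 ± 3.96 CPM. With at most 10% mitochondrial UMIs, 3 libraries remained, 567 genes passed, and the calls of Slpi, Lcn2, Crb3, Dsp, Dsg2, Ocln, Pax2, Pax8, Hoxb7 and Hoxd9 were among those lost.

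**Figure D4:**
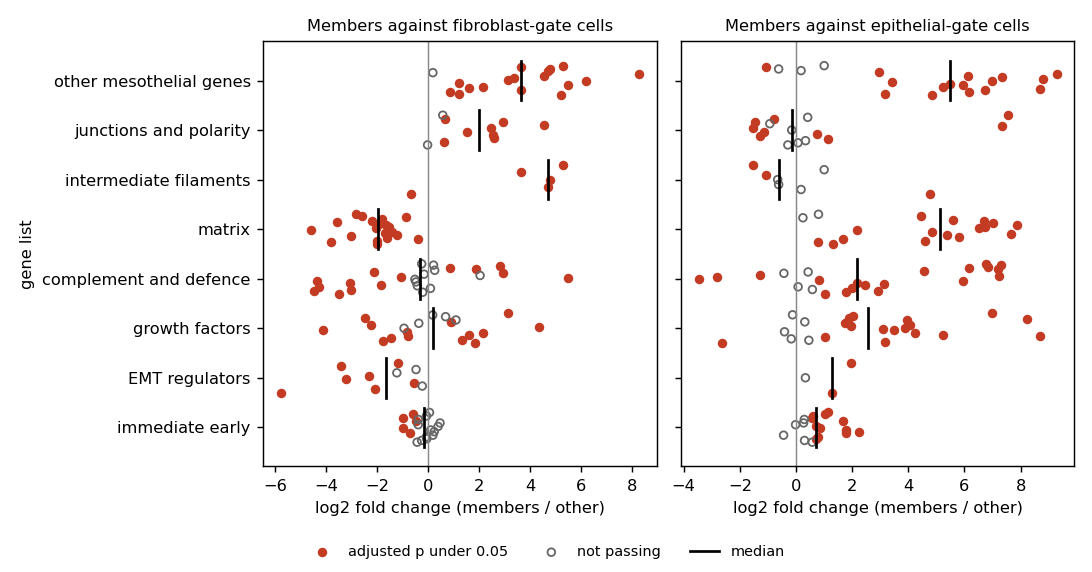
Log2 difference between mesothelial cells and the fibroblast gate or the epithelial gate (horizontal axis) for each tested gene of the listed groups (rows), with filled points for adjusted p under 0.05 and bars at the group median. The mesothelial list had medians of 3.65 and 5.48, and the matrix list of -1.97 against fibroblasts and 5.12 against epithelium.

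Whether the deletion of Nalcn changed mesothelial expression was tested between genotypes, with sex in the fit. Of 3843 genes, 1 passed between null and wt libraries (0.026%), 2 between het and wt (0.052%), 3 between het or null together and wt (0.0781%) and 1 between labelled females and males (0.026%). Unadjusted p-values under 0.05 numbered 125, 164, 158 and 151, and DESeq2 called 6, 6, 11 and 1, the last being Spag11b, lower in females. None of the genes called by edgeR was on the mesothelial list. Of the 10 invasion and transition genes named by the study, 4 were tested between het or null and wt and 0 passed (median log2 difference -0.17). Of the 20 listed mesothelial genes, 19 were tested and 0 passed in each of the 4 comparisons, with median log2 differences of -0.10, 0.08, 0.07 and 0.12. Muc16 differed by 0.07 (SE 0.28, adjusted p = 0.998) and C3 by 0.28 (SE 0.31, adjusted p = 0.998) between het or null and wt, and by -0.12 and 0.35 without null 3.

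No genotype call stood without sex in the fit, and none between het or null and wt with flagged doublets removed. With sex in the fit, Spag11b, an epididymal defensin-like gene, was called in all 3 genotype comparisons. It stood at 16.0, 14.7 and 0 CPM in wt 2, 3 and 4, 8349 and 1687 in het 1 and 2, 5136 and 143 in null 2 and 3, and 33.9 and 0 in the libraries of unclear genotype, and the groups did not overlap (het or null against wt, log2 difference 8.29, SE 0.75, adjusted p = 0.00211). All other passing barcodes of the same libraries showed the same split, with 132, 84.1 and 6.36 CPM in wt 2, 3 and 4, 2862 and 5192 in het 1 and 2, and 6229 and 6284 in null 2 and 3. Gpx5 (0 in wt 2, 3 and 4; 18825, 1949, 8804 and 162 in het 1, het 2, null 2 and null 3; at least 1513-fold higher, adjusted p = 0.0208) and Defb20 (0; 9046, 1402, 5906 and 177; at least 841-fold, adjusted p = 0.0156) are epididymal too. The wt libraries held 5 UMIs of Spag11b and none of Gpx5 or Defb20. All 3 genes entered the test only through the het and null libraries, so their calls describe those libraries. Without null 3, Spag11b (8.32, SE 0.82, adjusted p = 0.00177), Gpx5 (at least 2006-fold) and Defb20 (at least 1109-fold) were still called. The other 7 of the 10 genes then called were Cst8, Cst11, Cst12, Defb25, Defb47 and 9230104L09Rik, all higher in het or null, and Fabp5, a fatty acid binding protein gene, which was lower (-2.22, SE 0.35, adjusted p = 0.0259). Of these, Cst8, Cst11, Defb47 and 9230104L09Rik had no UMI in the wt libraries and entered the test by the same route. How much free epididymal RNA adds to these values was not tested. With the 21 cells past the limits above (over 5% epididymal UMIs or at least 2 uroplakin UMIs) left out, Spag11b stood at 68.2 and 87.1 CPM in het 1 and 2, 408 and 132 in null 2 and 3 and at most 15.5 in wt 2, 3 and 4. The choice of these cells lowers such genes by itself. Other cells with such transcripts stayed in. Of all 518 cells, 15.8% had a UMI of Gpx5, against 7.83% of the B cell gate. These shares cannot be set against each other, since libraries gave unlike numbers of both. In wt 2 there were 1808 B cells and 32 mesothelial cells, and in null 2 there were 243 and 107. Spag11b (4.26, SE 0.89, adjusted p = 0.195), Gpx5 (8.12, adjusted p = 0.0952) and Defb20 (7.96, adjusted p = 0.155) then did not pass between het or null and wt. All 3 passed between null and wt (Spag11b 5.10, SE 0.53, adjusted p = 0.000652). Hbb-bt alone passed between het and wt.

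The haemoglobin gene Hbb-bt was the other gene called, lower in het than in wt (log2 difference -6.42, SE 0.62, adjusted p = 0.0072), although the groups overlapped. It stood at 872, 1091 and 3.47 CPM in wt 2, 3 and 4 and 7.45 and 15.4 in het 1 and 2, and its other barcodes held 2406, 432, 341, 961 and 220.2. These calls hung on single libraries: the null count was 0 without wt 2, wt 3 or null 2 and 5 to 13 without each other library. The het count was 0 without wt 3 and 6 to 14 without each other library. The count for het or null was 0 without wt 3, 1 without wt 2, 4 without null 2, 8 without wt 4, 10 without het 1 or null 3 and 12 without het 2. Without 1 of its 2 libraries, het or null was a lone library assumed to vary like the other groups.

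Between labelled sexes, Xist was the 1 gene called by edgeR, and was not called by DESeq2, at 2341 CPM in wt 4, 1289.9 in null 3 and 0 in all 5 male libraries (at least 553-fold, adjusted p = 0.00211). It entered the test only through the libraries labelled female. The lower value in null 3 stood beside the mixed Xist and Y-linked cells described above, and without that library, with wt 4 as the lone female library and its spread taken from the other groups, 2 genes passed, Xist (adjusted p = 0.00259) and Lum. The lists of matrix genes (median log2 difference 0.12) and steroid receptors (0.09) had 0 genes called between sexes. Of single genes picked for a high value in wt 4, Igf1 was at 590.5 CPM there against 36.4 to 192 in the other 6 libraries (log2 difference 1.46, SE 0.54, adjusted p = 0.992), and the oestrogen receptor gene Esr1 at 184 against 26.7 to 93.7 (1.15, SE 0.56, adjusted p = 0.992). Of both libraries of unclear genotype, the female one, also with uterus in its pool, held Igf1 at 173 and Esr1 at 177, and the male one at 50.8 and 102. The collagen-binding gene Lum was likewise at 452 CPM in wt 4 and 118 in that female library, against 0 to 44.7 in the other 6. With null 3, which had 0, Lum did not pass the filter on low counts and was not tested. Without null 3 it entered the test only through wt 4, the lone female library and the one that picked it (log2 difference 3.94, SE 0.52). That fit cannot show a difference between sexes in Lum.

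Nalcn itself was close to the detection limit. The 518 cells held 5 Nalcn UMIs in 5 cells, 2 in wt 4, 1 in null 3 and 2 in the male library of unclear genotype, or 2.66 CPM (exact Poisson 95% interval 0.862 to 6.20), against 49 UMIs or 0.166 CPM (0.123 to 0.219) in other passing barcodes. Prom1, whose promoter drives the Cre, had 14 UMIs in 10 cells (7.44 CPM, 4.07 to 12.5). Of these UMIs, 8 were in 4 cells of wt 3 and 3 in wt 2. There was 1 each in wt 1, het 2 and the female library of unclear genotype, and none in het 1, null 2 or null 3. At this depth a deletion of Nalcn in these cells was not detectable, so the genotype comparisons above cover whole libraries of labelled genotype and not cells shown to have lost the gene.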

How the data were processed

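Single-cell libraries were made by droplet capture with 3′ chemistry, and the authors deposited filtered matrices of raw UMI counts per gene and barcode (31053 genes). The matrix headers name Cell Ranger 3.0.2 and the submitters' processing notes Cell Ranger 2.1.1, Seurat and mm10. Tissue was perfused and digested with enzymes that differed between organs (collagenase for most, papain for kidney), and organs were hashtagged and pooled. Members and gene lists were chosen with earlier results of these data known. Gates were applied to the 22 libraries as described, with doublets kept (barcodes flagged by Scrublet score, through scanpy 1.11.5, were removed only as an alternative). Of 175975 barcode sequences, 3900 occurred in more than 1 library.

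Counts were summed over cells per library (at least 20 cells), filtered with filterByExpr, scaled by TMM and tested with the edgeR 4.0.16 quasi-likelihood test in R 4.3.3, with Benjamini-Hochberg adjustment at 0.05. Genotype fits held wt, het and null libraries and sex, and class fits held library as a block. DESeq2 1.42.0, RLE scaling, other filters, gates and cell limits, a replicate block and the omission of each library were alternatives. Shares were compared by exact two-sided permutation over libraries, and no label says that the libraries of a group came from separate litters or runs, so p-values measure the spread between these libraries. Scripts were tested on simulated data. Exact Clopper-Pearson and Poisson intervals (95%) and the limit for a count of 0 (3 counts) cover counting error only.

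Genes named are members of the lists and, per class comparison, up to 8 called genes in each direction with the largest log2 difference, at least 50 CPM in the higher group and 1 direction in every library (genotype and sex: up to 3, without overlap of groups), and the 12 highest by mean CPM and by ratio to other barcodes. Hbb-bt, Lum, Upk3a, Fabp5 and the other genes called without null 3, and some values per library were chosen after they were seen. Of 359 listed symbols, 357 were found. Hashtag counts were not used here.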

Additional observations from a re-analysis of the deposited data

Results flagged for a closer look

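The rule for mesothelial cells was also applied to the sorted green cells of blood and to blood mononuclear cells, which no comparison of the report used. In 10 libraries of sorted green cells, 2 of 2109 passing barcodes met it (0.0948%, exact 95% interval 0.0115 to 0.342), both in the Nalcn-null replicate 1 library, where they were 1.45% of 138 barcodes. That mouse was a female of 551 days. The other 3 null libraries of sorted cells held 0 of 284, 36 and 240 barcodes, the 4 het libraries 0 of 108, 62, 161 and 578, and the 2 wt libraries 0 of 502, which allows up to 0.598%. The other mice of this sort were of either sex and 551 to 649 days old, the wt mice being males of 571 and 608 days. The mononuclear library, of a male of 120 days, held 0 of 679, which allows up to 0.442%. Each of the 2 barcodes, of 1566 and 2212 UMIs, had 6 of the 20 other mesothelial genes, against a median of 10 in the tissue cells. They held 6 and 8 UMIs of C3, 2 and 10 of Dcn, 5 and 3 of Krt8 and 16 and 25 of Vim. Igfbp5 stood at 0 and 1 UMI, Igfbp6 at 0 and 2, Krt19 at 0 and 1 and Slpi at 3 and 1. Neither barcode had Efemp1 or Lrrn4. They also held 6 and 12 UMIs of Hmgb2 and 2 and 9 of Cenpf, genes of dividing cells, and no Muc16. Neither barcode sequence occurred in another library. With 2 barcodes in 1 library, no difference between genotypes was tested.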

How the results depend on the processing

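No share comparison passed under any setting, but without null 3, wt 4 or wt 5 the sex comparison could not go below p = 0.0714 (exact permutation). Leaving out 1 library moved the genotype difference in share between 0.228 and 0.510 percentage points. It was 0.181 with Epcam, Col1a1 and haemoglobin at 0, 0.526 at 10% mitochondrial UMIs and 0.531 at 500 genes. The difference between sexes ran between -0.256 and 0.0653, the sign turning without wt 5. Counts of called genes between null and wt, het and wt, het or null and wt, and female and male were, in that order, 1, 2, 3 and 1 as reported. They were 58, 80, 87 and 85 with no filter on low counts. Without sex in the fit, each of the 3 genotype counts was 0 (137, 207 and 151 genes with an unadjusted p under 0.05). DESeq2 called 6, 6 and 11 genes between genotypes. Without doublets the genotype counts were 4, 1 and 0 (88 unadjusted for the last). Without the cells of other epithelium, an alternative chosen after seeing the data, they were 3, 1 and 0 (120 unadjusted for the last). Barcodes with at least 3 markers gave 8 for null and 2 for sex, at least 500 genes gave 1 for het, and leaving out shared barcodes gave 2 for null and 6 for het or null. At most 10% mitochondrial UMIs left wt 2, wt 4, het 1 and null 2 and gave 74 for het or null and 43 for sex, each resting on 1 library in an arm (wt 4 as the only female, wt 2 as the only wt male). With Epcam, Col1a1 and haemoglobin at 0, no het library kept 20 cells, and null (the same fit as het or null) and sex gave 5 each. Leaving out 1 library gave 0 to 13, 0 to 14, 0 to 12 and 1 to 8. For het and wt no fit could be had with at least 3 markers, at most 10% mitochondrial UMIs or the last gate, nor for null and wt at 10%, since too few libraries kept 20 cells.

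Libraries share replicate numbers only. Deviations of same-numbered libraries from their group means correlated at r = -0.276 (wt 2 and null 2), -0.351 (wt 3 and null 3), 0.203 (wt 2 and het 2) and -0.329 (het 2 and null 2) over 3861 genes. Pairs of unlike number ran from -0.329 to 0.351. In a group of 2 libraries the deviations mirror each other, so these values cannot show whether libraries were paired. A replicate block gave 24, 23, 0 and 0 calls by edgeR (232 and 307 unadjusted for the last 2), without sex in the null and het fits. The het count rests on 1 pair, het 2 and wt 2.

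Against fibroblasts, 1042 genes passed, 2215 with no filter and 438 at 10% mitochondrial UMIs (839 to 1036 without 1 library). Against epithelium, 1662 passed, 3623 with no filter, 567 at 10% and 1027 without doublets (1381 to 2199 without 1 library). The named and listed genes called against fibroblasts numbered 112, with 1867 of 1952 values under alternatives still past the threshold, 85 not, and none of the other sign. Against epithelium 139 genes gave 2278 of 2419 past it and 140 not, and 1, the heat shock gene Hspa1b members vs epithelial gate, turned to -0.0325 at 10%. Where a count moved, the cause was not tested.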
